A study of Homo sapiens with 2 samples.

Results

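The 3 hyaluronan synthase genes, HAS1, HAS2 and HAS3, and HAS2-AS1, a long non-coding RNA gene on the strand opposite HAS2, were compared between 2 RNA-seq libraries of human C28/I2 chondrocytes. These 4 of the 58220 genes in the tables were taken by gene symbol, and the set was selected on the measured ratio of HAS2-AS1 between these libraries, so that ratio is a description here. C28/I2 is an immortalized human chondrocyte line. Cells of the shvoid library (genotype label WT) carried a lentiviral control, and cells of the shFGF9-D1 library (genotype label FGF9 knock down) carried a lentiviral shRNA against fibroblast growth factor 9 (FGF9). Both were infected at a multiplicity of infection of 10, and total RNA was taken 72 hours after infection. There was 1 library per condition and 1 shRNA, so differences could not be checked against replicates, and culture, infection and shRNA cannot be told apart.

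Hyaluronan is a long unsulfated polysaccharide of alternating glucuronic acid and N-acetylglucosamine. The synthases HAS1, HAS2 and HAS3 are membrane enzymes that build it from UDP-sugars and extrude it from the cell. In cartilage it is the backbone that aggrecan and link protein bind, and CD44 tethers it to the chondrocyte surface. HAS2 is known as the main synthase of chondrocytes, and HAS2-AS1 has been described in other cell types as an antisense RNA that can affect HAS2.

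The synthases are close paralogs, so the coding sequences were compared to see how far reads of one could be assigned to another. The coding sequence was 1734 bases in HAS1, 1656 in HAS2 and 1659 in HAS3. Aligned bases were identical at 56.7% between HAS1 and HAS2, 65.8% between HAS1 and HAS3, and 66.5% between HAS2 and HAS3. The longest run of identical bases was 26 in the pair of HAS1 and HAS3, 19 in HAS1 and HAS2, and 18 in HAS2 and HAS3. That run of 26 is shown in capitals, since it is the longest stretch in which HAS1, at 0 or 1 count, and HAS3, with counts in both libraries, read alike, and 25 bases are given on each side. Both stretches lie in exon 4 of GENCODE release 29 transcripts on GRCh38, that of HAS1 on the minus strand at chr19:51716258-51716333 and that of HAS3 on the plus strand at chr16:69114522-69114597, and 55 of the 76 bases are identical.
HAS1: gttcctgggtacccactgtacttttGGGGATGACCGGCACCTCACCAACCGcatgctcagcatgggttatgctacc
HAS3: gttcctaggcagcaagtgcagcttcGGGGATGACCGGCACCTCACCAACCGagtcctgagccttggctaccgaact
On both sides of the run the genes differ at several bases.

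The estimated counts summed to 519192 in shvoid and 502774 in shFGF9-D1, and 3595 and 3448 genes reached 10 counts. For a call, a gene needed 10 counts or more in a library, a 2-fold or larger difference, and an interval clear of equal levels. In all, 4000 genes had 10 counts or more in at least 1 library. FGF9, the targeted gene, was at 0 in both libraries, so its knockdown could not be checked here. The marker check of the cell label was limited by low counts. The chondrocyte list of 14 genes summed to 53 counts in shvoid and 44 in shFGF9-D1. COL2A1 was at 0 in both libraries, SOX9 was at 2 and 1, and ACAN was at 5 and 0. MATN1, CHAD and PRG4 were its 3 genes at 10 counts, and none was called. The 10 fibroblast and dedifferentiation markers summed to 173 and 133 counts, and 4 of them reached 10 counts. Of these 4, TWIST1 was called lower, beside 5.38% called lower among all genes at 10 counts. It had 19 counts in shvoid and 6 in shFGF9-D1 (log2 ratio -1.58, interval -3.19 to -0.20). FN1 had 116 and 77 counts in the same order, COL1A1 had 19 and 26, and VIM had 17 in both. These were not called, and 2 of the 4 ratios lay above equal levels. At their exons, TWIST1 and VIM overlapped an opposite-strand gene, as did MATN1, CHAD and PRG4, whereas FN1 and COL1A1 did not. Such an overlap was present for 76.9% of all genes at 10 counts. Which strand the counts of the overlapping markers came from was not tested. Fewer cells of a type and less RNA per cell cannot be told apart in these bulk libraries.

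HAS2-AS1 was the most strongly counted of the 4 genes and had 259 counts in shvoid and 72 in shFGF9-D1. HAS3 had 70 and 86 counts. HAS1 had 1 and 0, and HAS2 had 0 in both. Per length, on the authors' FPKM scale, the order in both libraries was HAS2-AS1, then HAS3, with HAS1 and HAS2 last at under 1 FPKM. HAS1 and HAS2 did not differ beyond counting error, as 0 and 1 count cannot be told apart at this depth.

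**Figure D1:**
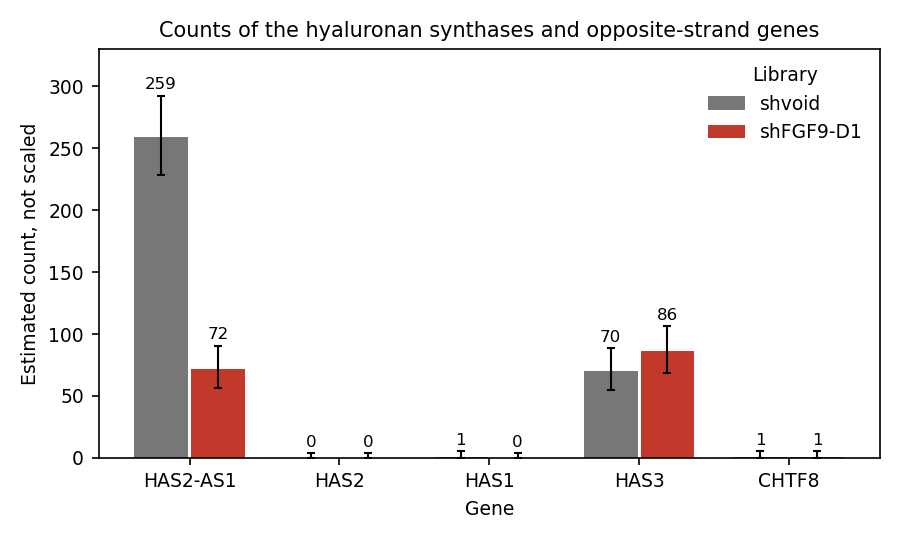
Estimated counts, not scaled between libraries, of HAS2-AS1, HAS2, HAS1, HAS3 and CHTF8 (the gene opposite HAS3) in the shvoid (grey) and shFGF9-D1 (red) libraries, 1 each; bars are counts and lines are exact Poisson 95% limits of counting error. HAS2-AS1 stands at 259 and 72 and HAS3 at 70 and 86, while HAS2, HAS1 and CHTF8 are at 0 or 1.

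HAS2-AS1 (ENSG00000248690) was 3.40-fold lower in the shFGF9-D1 library. After TMM scaling (a scaling of library sizes that trims genes with extreme ratios) its level was 493 CPM (counts relative to the scaled library total) in shvoid and 145 CPM in shFGF9-D1, a log2 ratio of -1.77 with an exact Clopper-Pearson 95% interval of -2.16 to -1.38. This interval holds counting error alone, and with 1 library each the comparison is of libraries rather than conditions. On the authors' FPKM scale, which also divides by transcript length, its level was 994 in shvoid and 273 in shFGF9-D1, a difference of -1.86 in log2(FPKM + 1). Ranked by FPKM among all genes it moved from place 124 to place 470.

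By the rule for calls, HAS2-AS1 was the 1 of the 4 genes called lower, beside 215 of the 4000 genes with enough counts (5.38%), and 0 of the 4 were called higher, beside 188 (4.7%). With DESeq2 size factors, which were 1 for both libraries and so left the counts unscaled, this became 257 lower and 148 higher. The ratio of HAS2-AS1 chose the set, so nothing is read from its being called or from its rank among other genes. It reached 100 counts in the shvoid library alone, where it was higher. Of 815 genes that reached 100 counts in a library, the ratio of HAS2-AS1 was the 2nd lowest, next to AL360270.3 at -1.78, and the median log2 ratio was 0.14. Of the 51 genes at that depth with a name ending in -AS and a digit, HAS2-AS1 had the lowest ratio, with 3 of the 51 called lower and 1 called higher.

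**Figure D2:**
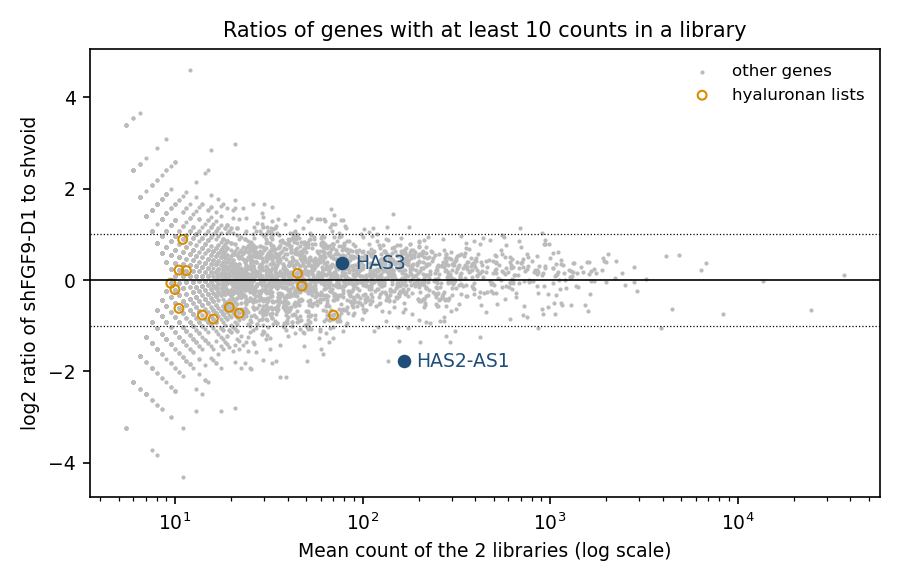
Log2 ratio of shFGF9-D1 to shvoid (TMM-scaled counts) plotted over each gene's mean count (log scale), with 1 library on each side, for genes that reached 10 counts in a library and were counted in both; grey points are other genes, orange circles the hyaluronan lists, blue points HAS2-AS1 and HAS3, and dotted lines mark 2-fold. HAS2-AS1 at -1.77 lies below nearly all genes of similar count, and HAS3 at 0.38 lies within the cloud.

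HAS3 (ENSG00000103044), under which nearly all synthase counts were listed, was not called in either direction. Its level was 133 CPM in shvoid and 173 CPM in shFGF9-D1, a 1.30-fold ratio (log2 ratio 0.38) whose interval of -0.09 to 0.86 included equal levels and did not reach 2-fold. Its FPKM was 87.7 and 120 in the same order. By the authors' FPKM, HAS2-AS1 was thus 11.3-fold above HAS3 in the shvoid library and 2.28-fold above it in the shFGF9-D1 library. These folds depend on the transcript lengths the authors used, which were not checked. GENCODE release 29 lists 3533 exon bases for HAS2-AS1 and 5289 for HAS3. Within each library, where the scaling cancels, there were 3.70 counts of HAS2-AS1 for each count of HAS3 in shvoid and 0.837 in shFGF9-D1, a difference of -2.14 on the log2 scale. Of 1385 genes that reached 50 counts in a library, HAS3 had the 414th highest ratio and HAS2-AS1 the 6th lowest.

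HAS1 (ENSG00000105509) and HAS2 (ENSG00000170961) gave no ratio, since both counts were at or under 3. HAS1 was listed at an FPKM of 0.488 in shvoid and at 0 in shFGF9-D1, and HAS2 at 0 in both. A count of 0 was taken to allow up to 3 counts of RNA of the counted strand. This is 5.71 CPM in shvoid and 6.04 CPM in shFGF9-D1. The kit kept the strand of the RNA, and which strand was then counted is not stated in the sources used here, so the 0 may set no limit on HAS2 mRNA.

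HAS2 and HAS2-AS1 lie head to head on opposite strands of chromosome 8. In GENCODE release 29 (GRCh38), HAS2 runs on the minus strand from 121612116 to 121641390, with 1 transcript. HAS2-AS1 runs on the plus strand from 121639293 to 121993876, with 8 transcripts and 0 coding ones. Both genes carry the same locus in the authors' table, 121612116 to 121644693, which holds 4 of these 8 transcripts and 1862 of the 3533 exon bases of HAS2-AS1. The genes share 201 exon bases, from 121641190 to 121641390, which belong to exon 1 of HAS2 and hold 0 coding bases, that is, to the HAS2 5' untranslated region. The shared part was 10.8% of the HAS2-AS1 exon bases inside the authors' locus and 4.80% of the HAS2 exon bases.

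**Figure D3:**
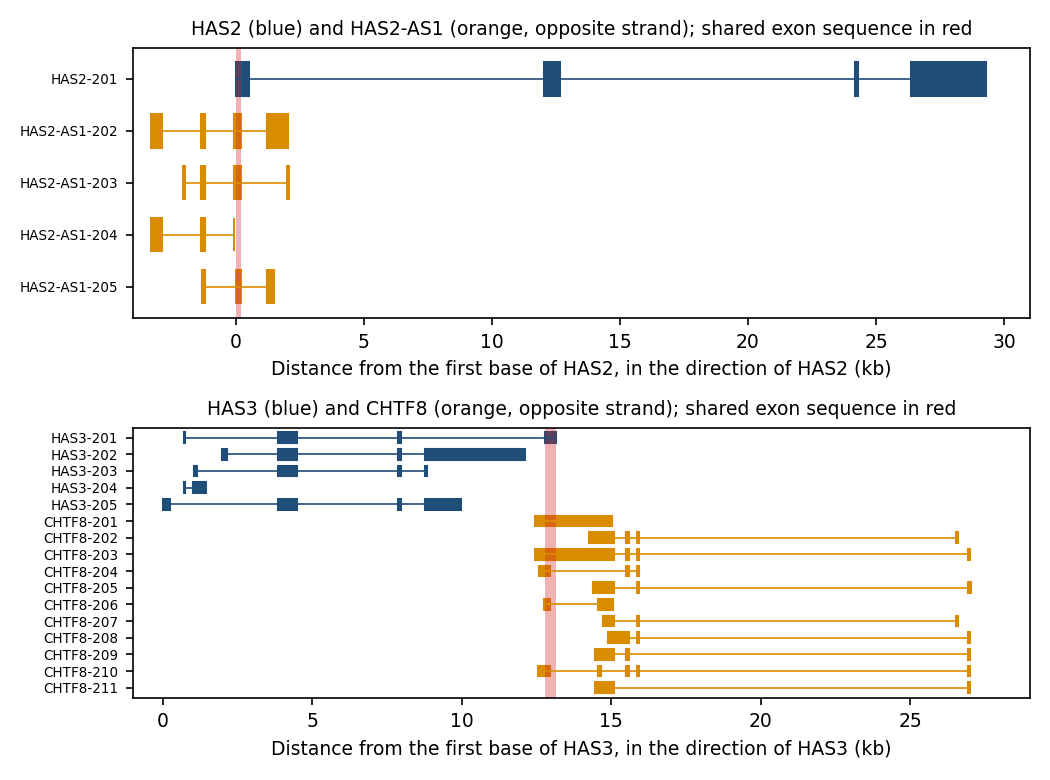
GENCODE release 29 transcripts of HAS2 with the HAS2-AS1 transcripts inside the authors' locus (upper panel) and of HAS3 with CHTF8 (lower panel), against the distance in kb from the first base of HAS2 or HAS3; boxes are exons, lines are introns, and the red band marks the exon sequence shared by opposite strands. The band covers 201 bases at the start of HAS2 and 365 bases at the end of HAS3.

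At the HAS2 locus every count went to HAS2-AS1. Its share of the summed counts was 100% of 259 in shvoid and 100% of 72 in shFGF9-D1. If a count of 0 for HAS2 is taken to allow up to 3 counts, its share could reach 1.16% in shvoid and 4.17% in shFGF9-D1. The only other gene that starts within 10 kb, the non-coding AC104233.2, was at 0 in both libraries. Whether the counts listed under HAS2-AS1 came from its own RNA or from HAS2 mRNA was not tested.

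HAS3, too, overlapped an opposite-strand gene at its exons. HAS3 lies on the plus strand of chromosome 16 from 69105564 to 69118719, and CHTF8, which encodes a subunit of an alternative clamp-loading complex of DNA replication, lies on the minus strand. They share 365 bases from 69118355 to 69118719, in 1 of the 5 HAS3 transcripts, of which 105 are HAS3 coding bases. CHTF8 had 1 count in each library, so HAS3 took 98.6% of the 71 counts of the pair in shvoid (interval 92.4 to 100) and 98.9% of the 87 in shFGF9-D1 (interval 93.8 to 100). Whether the counts listed under HAS3 came from its own RNA or from CHTF8 RNA was not tested. HAS1, on the minus strand of chromosome 19 from 51713112 to 51723994, shared no exon base with an opposite gene. HAS2-AS1 and HAS3, with counts in both libraries, each lay opposite a gene at 0 or 1 count. HAS2, which also overlaps an opposite gene, was at 0, and HAS1, with no opposite exon, was at 1 and 0. Whether the overlap had a part in these counts was not tested.

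The same arrangement was found at other loci in these libraries, in a minority of pairs, and an opposite gene at 0, like HAS2, was less frequent. Of 1291 pairs made of a gene that reached 50 counts and a protein-coding gene overlapping its exons from the other strand, the opposite gene had 3 counts or fewer in each library in 355 (27.5%) and 0 in 87 (6.74%). Where the counted gene was non-coding, as HAS2-AS1 is, these were 210 of 580 pairs (36.2%) and 46 (7.93%). The same shares over all coding genes are not given here, so the shares of pairs are not read as an excess. Among nuclear protein-coding genes, 29.5% of those with an exon overlap on the other strand reached 10 counts, against 5.32% of those without one. VIM, the intermediate filament gene that mesenchymal cells express strongly, was at 17 counts in both, whereas the opposite VIM-AS1 was at 14278 and 13214. Its log2 ratio was -0.03 (-0.06 to 0.00). For the glycolytic gene GAPDH the counts were 8 and 11, and for AC006064.4 opposite it they were 1073 and 1267.

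The 5 genes annotated as antisense whose ratios lay nearest to that of HAS2-AS1 were each called lower. AL360270.3 had 214 counts in shvoid and 59 in shFGF9-D1 (log2 ratio -1.78), opposite LRIF1 at 1 and 2. INE2 had 429 and 158 (log2 ratio -1.36), opposite CA5B at 2 and 3. AC009139.2 had 100 and 39 (log2 ratio -1.28), opposite MON1B at 2 and 6. THRIL, a long non-coding RNA named for its link to TNF expression, had 602 and 240 (log2 ratio -1.24), opposite BRI3BP at 2 and 1. IL10RB-AS1 had 435 and 191 (log2 ratio -1.11), opposite IFNAR2 at 1 and 2. They were picked for their ratio, and 243 genes annotated as antisense had at least 100 counts in a library, of which 1 had a lower ratio than HAS2-AS1.

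**Figure D4:**
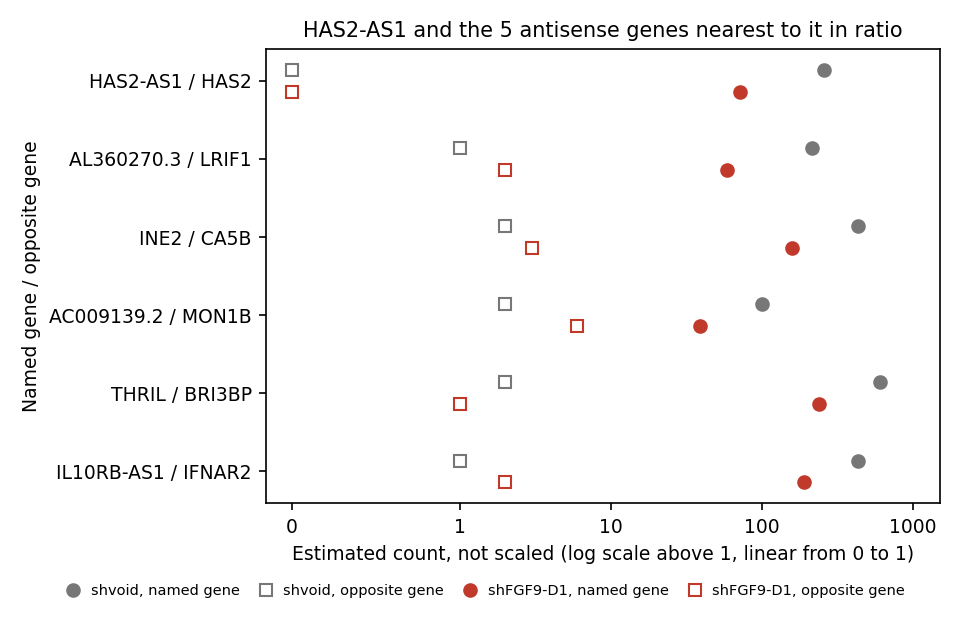
Estimated counts, not scaled (log scale above 1, linear from 0 to 1), of HAS2-AS1 and the 5 antisense genes nearest to it in ratio (filled circles), each with its opposite-strand protein-coding gene (open squares), in the shvoid (grey) and shFGF9-D1 (red) libraries, 1 each. The named genes hold 39 to 602 counts, and the opposite genes 0 to 6.

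Beyond the synthases, most genes of hyaluronan metabolism were too thinly counted to compare, and none was called. The 6 lists (synthases, precursor enzymes, degrading enzymes, receptors, binding matrix proteins and regulators of HAS2) hold 78 genes, HAS2-AS1 not among them. Of these, 58 had a count and 14 reached 10 counts, with 0 higher and 0 lower, beside 10.1% called in either direction among all genes at 10 counts. Without the synthases the median log2 ratio of the 13 genes left was -0.21, and 0.04 over all genes at 10 counts. Of the 14, 12 overlapped an opposite gene at their exons, as did 76.9% of all genes at 10 counts, a share close to that background. UGP2 and HYAL1 were those that did not. Which strand the counts of the 12 came from was not tested.

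Of 18 enzymes that supply UDP-sugars, 4 reached 10 counts. PGM3, which isomerizes N-acetylglucosamine phosphate on the way to UDP-N-acetylglucosamine, had 44 counts in shvoid and 46 in shFGF9-D1 (log2 ratio 0.15, interval -0.48 to 0.78), and DOPEY1 opposite it had 231 and 163. UGDH, which makes UDP-glucuronic acid, had 8 and 14 (log2 ratio 0.89, interval -0.46 to 2.35). UGP2, which makes UDP-glucose, had 24 and 15 (log2 ratio -0.60, interval -1.63 to 0.39), and the hexokinase HK2 had 13 and 8. All 4 intervals included equal levels.

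Degradation and binding genes were counted as thinly. HYAL1, a lysosomal hyaluronidase, had 21 counts in shvoid and 11 in shFGF9-D1 (log2 ratio -0.85, interval -2.05 to 0.27). HEXA, the alpha subunit of beta-hexosaminidase, had 10 and 9, and AC009690.2 opposite it had 139 and 170. CD44, the main hyaluronan receptor, had 11 and 9, and HMMR, a hyaluronan-binding protein of the mitotic spindle, had 18 and 10. BCAN, which encodes brevican, a hyaluronan-binding proteoglycan best known from brain, had 90 and 50. Its log2 ratio of -0.77 had an interval of -1.29 to -0.25 that excluded equal levels, but it stayed under 2-fold and was not called. PRG4, the lubricating proteoglycan of the cartilage surface, had 11 and 12. No other gene of these 3 lists reached 10 counts.

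Among 20 genes chosen as regulators of HAS2, 3 reached 10 counts. The transcription factor YY1 had 51 counts in shvoid and 44 in shFGF9-D1 (log2 ratio -0.13, interval -0.75 to 0.48). CREB1, the cyclic AMP response factor, had 28 and 16 (log2 ratio -0.73, interval -1.71 to 0.21). TGFB1, a growth factor known to alter hyaluronan synthesis, had 10 and 11. None of these intervals excluded equal levels.

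**Figure D5:**
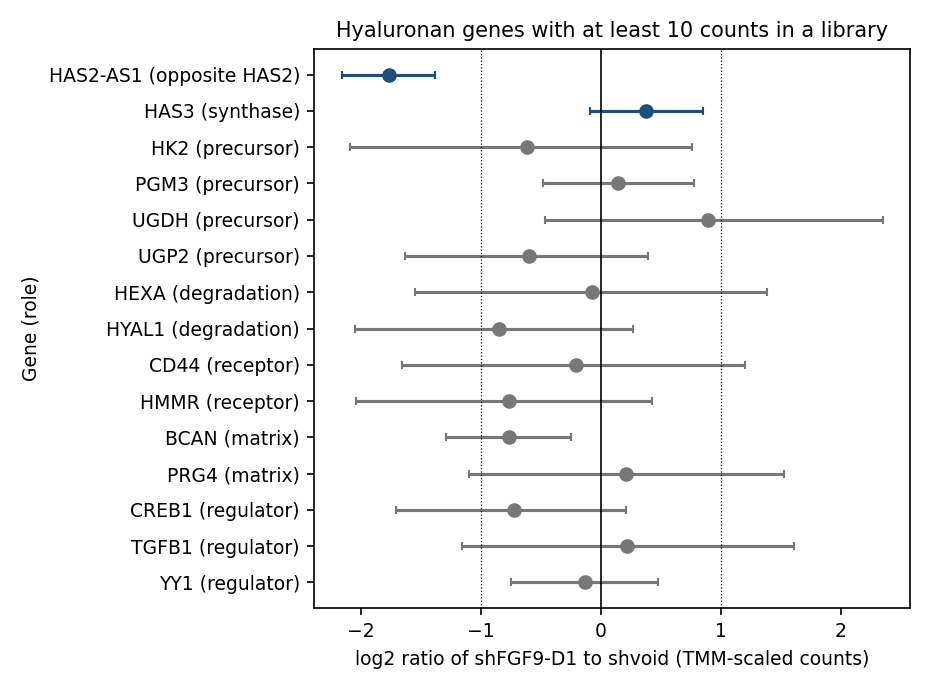
Log2 ratio of shFGF9-D1 to shvoid (TMM-scaled counts, 1 library each) for HAS2-AS1 and HAS3 (blue) and the 13 other hyaluronan genes with at least 10 counts in a library (grey); points are ratios, bars are exact Clopper-Pearson 95% intervals for counting error only, and dotted lines mark 2-fold. HAS2-AS1 at -1.77, whose ratio chose the set, is the 1 gene that passes 2-fold with an interval that excludes equal levels.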

How the data were processed

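Total RNA of 2 cultures was sequenced, 1 library each. The submitters' processing notes name bcl2fastq 2.1.7 and HISAT2, followed by Cufflinks 2.2.1, Cuffdiff and the build GRCh38.p14. Strand setting, read length and total reads are not stated in the sources used here. The deposited estimated counts are per gene and unscaled between libraries, and the deposited FPKM were scaled by the authors for transcript length and library size.

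The counts were rounded and then scaled by TMM (edgeR 4.0.16, R 4.3.3). Each ratio was given an exact Clopper-Pearson 95% interval (scipy 1.17.1), and no ratio was given where both counts were at or under 3. No test was made, since 1 library a condition gives no spread between cultures. Of 58220 genes, 57882 matched GENCODE release 29 by identifier, and shared exon bases came from bedtools 2.31.1. Coding sequences were read from the GENCODE transcripts. The call rule was tried on simulated counts that held counting error alone, so variation between cultures was not covered. Alternatives included DESeq2 1.42.0 size factors, total counts, TMM without mitochondrial genes, other count minimums, an assumed biological variation, unrounded counts, and log2(FPKM + 1) or log2(FPKM + 0.1).

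The members and gene lists were chosen with earlier results of these data known. Named genes were the 4 members, genes opposite them or starting within 10 kb, VIM and GAPDH with their opposite genes, the 5 antisense genes nearest HAS2-AS1 in ratio, and list genes with at least 10 counts (at most 6 a list). FGF9, the marker genes and the opposite genes of list members were named beside them.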

Additional observations from a re-analysis of the deposited data

How the results depend on the processing

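The log2 ratio of HAS2-AS1 stayed between -1.86 and -1.77 over every alternative scaling, unit and rounding. Its call held under each alternative that gave an interval, that is, the scalings and the assumed variations. This included the case where a biological coefficient of variation of 0.4 was assumed, for which the interval ran from -3.41 to -0.12. The margin was small, since the HAS2-AS1 interval reached equal levels once this value was raised to 0.431. With 1 library per condition the real variation between cultures is unknown, so it may lie above that limit. The log2 ratio of HAS3 stayed between 0.30 and 0.45 and was not called under any alternative that gave an interval. For HAS1 and HAS2 no ratio was formed under any alternative, since both counts were at or under 3 and HAS2 in both libraries and HAS1 in shFGF9-D1 are listed at 0. The assumed variation of 0.4 left 30 genes called lower and 21 higher, a minimum of 20 counts gave 130 and 119, and dropping the demand on the interval gave 376 and 303, against 215 and 188. DESeq2 size factors, at 1 for both libraries and so leaving the counts unscaled, gave 257 lower and 148 higher. With no minimum count, 1 hyaluronan gene was called, HK1 with 1 count in the shvoid library and 8 in the shFGF9-D1 library. No paired analysis was possible because there was 1 library per condition and no replicate number. The libraries summed to 519192 and 502774 counts. HAS1, HAS2 and most hyaluronan genes were too thinly counted for a ratio. Whether depth or the strand that was counted lay behind this was not tested.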
